A study of Mus musculus with 12 samples.

Results

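Skin of mice that received the hapten 1-chloro-2,4-dinitrobenzene (DNCB) and mesenchymal stem cells (MSCs) by split injection was compared with skin of mice that never received the hapten. The comparison took all 3 scivMSC and all 3 control libraries of dorsal skin, which are 6 of the 12 libraries of the series, and every gene that averaged 0.1 FPKM or more across the series, 21890 of the 36400 genes listed. FPKM is the number of sequenced fragments scaled for gene length and library size. Each library was taken as the skin of 1 female BALB/c mouse, an albino strain, bought at 6 weeks of age. The groups were of 6 mice, and how 3 libraries came from each is not stated in the sources used here. All mice were clipped and treated with hair removal cream before the first application, were clipped again late in the course, and were killed on day 30. Control mice received vehicle (acetone and olive oil) alone. The scivMSC mice were sensitized with 1% DNCB, challenged with 0.5% DNCB until day 27, and received 2000000 human umbilical cord MSCs in each of 4 injections from day 13 to day 25, with 50 µL under the skin beside the lesion and 50 µL into the tail vein. The DNCB mice, whose values stand beside the comparison, had the same hapten applications and no cells. The scMSC mice, whose libraries enter the filter and the model, had the same hapten applications and cell dose. Their cells were injected as 100 µL under the skin, with none into the tail vein. A group given the hapten and injections without cells is not described in the sources used here. The comparison answers how far treated skin was from never-exposed skin, and it cannot tell apart what came from the hapten and what came from the cells.

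Mouse hair follicles alternate between growth (anagen), regression and rest (telogen). During growth, matrix cells divide above the dermal papilla and build a shaft of hair keratins cross-linked by keratin-associated proteins, inside an inner root sheath, while follicular melanocytes make pigment. The epidermis between follicles renews itself from basal keratinocytes that switch to differentiation keratins and then to proteins of the cornified envelope, and it hosts Langerhans cells and dendritic epidermal T cells. A contact hapten such as DNCB binds skin proteins and raises an inflammation led by IL-1, neutrophils and T cells, with thickening of the epidermis and expression of stress keratins.

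Estimated counts summed to 63877153 to 67432451 per control library and to 65956147 to 74340012 per scivMSC library. The scivMSC replicate 3 library stood apart from the other scivMSC libraries. Mitochondrially encoded genes took 11.1% of its counts, against 4.6% and 5.03% in scivMSC replicates 1 and 2 and 8.15% to 11.1% in control, and its summed FPKM of collagen and matrix genes was the lowest of the 6 libraries. The scivMSC replicate 2 library stood apart as well, with a summed FPKM of stress keratinocyte genes of 7400 against 2439 and 2048 in scivMSC replicates 1 and 3, and 13743 to 16817 in DNCB skin. The second control library had more hair keratin RNA than the other control libraries. The third control library was the highest control for several immune lists. Its summed FPKM of macrophage and monocyte genes was 1556, against 414 and 503 in control replicates 1 and 2. For interferon-stimulated genes it was 498, against 239 and 236. In scivMSC skin macrophage and monocyte genes summed to 662, 711 and 148 FPKM, lowest in replicate 3. The part of these libraries in the immune results was not tested. A group of 10 lung epithelium genes was listed after their values were seen. They summed to 37.6 to 53.0 FPKM in control, 24.0 to 53.1 in DNCB and 2.92 to 5.89 in scivMSC skin. The scMSC libraries split, at 72.3, 67.2 and 2.87 FPKM, so the low level was not confined to scivMSC skin. These are markers of lung rather than skin, and the part of this difference in other results was not tested. Beside a gene whose call was lost when a single library was left out, those libraries are named by group and replicate number (control 1 is the first control replicate), with the highest adjusted p over the 6 such fits and, where one of these fits moved the fold change by over 1.5 times, the range of the log2 fold change.

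In all, 1500 genes were called different in scivMSC skin, with an adjusted p under 0.05 in edgeR's quasi-likelihood test and an absolute log2 fold change over 1. That is 6.85% of the genes tested. Of these, 766 were higher in scivMSC skin (3.5% of all tested) and 734 lower (3.35%). The count of every list below is to be read beside these shares. All 3 scivMSC libraries lay above or below all 3 control libraries for 1481 of the 1500, but groups also did not overlap for 24.3% of all tested genes in the upward direction and 10.3% in the downward direction. The median log2 fold change of all tested genes was 0.04. With library size as the only scaling it was 0.21, and the share of calls that were higher went from 51.1% to 66.7%, so changes are best read relative to that median. The count depended on single libraries, falling to 845 without control replicate 1, 964 without scivMSC replicate 1 and 843 without scivMSC replicate 2, and 580 genes were called with all libraries and in each of the 6 fits that left out one of the libraries compared. For scale, 14.2% of the same genes were called between DNCB and control skin and 5.46% between scivMSC and DNCB skin; these comparisons share libraries with the first, so values of single genes are set side by side without a test of likeness.

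The genes of the growing hair follicle had the highest median fold changes of the 36 lists of skin and immune cell genes. All 47 tested members of the list of keratin-associated proteins were called higher in scivMSC skin, and 22 of 29 genes of the hair shaft and inner root sheath were called higher and none lower, beside 3.5% called higher among all genes. The median log2 fold change was 7.40 for the first list, or 7.04 with the 10 genes at the floor in control set to their lower bound, and 5.16 for the second, against 0.04 for all genes. Without control 1 the counts were 39 and 14. The lists were chosen with earlier results of these data known, and the first does not hold every gene of its family. The share called is therefore a description and not a test. The 10 genes at the floor in control passed the filter on the series mean through other groups. Summed FPKM of the keratin-associated proteins was 10.5 to 46.6 in control, 1853 to 5635 in scivMSC and 39.4 to 296 in DNCB skin.

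**Figure D1:**
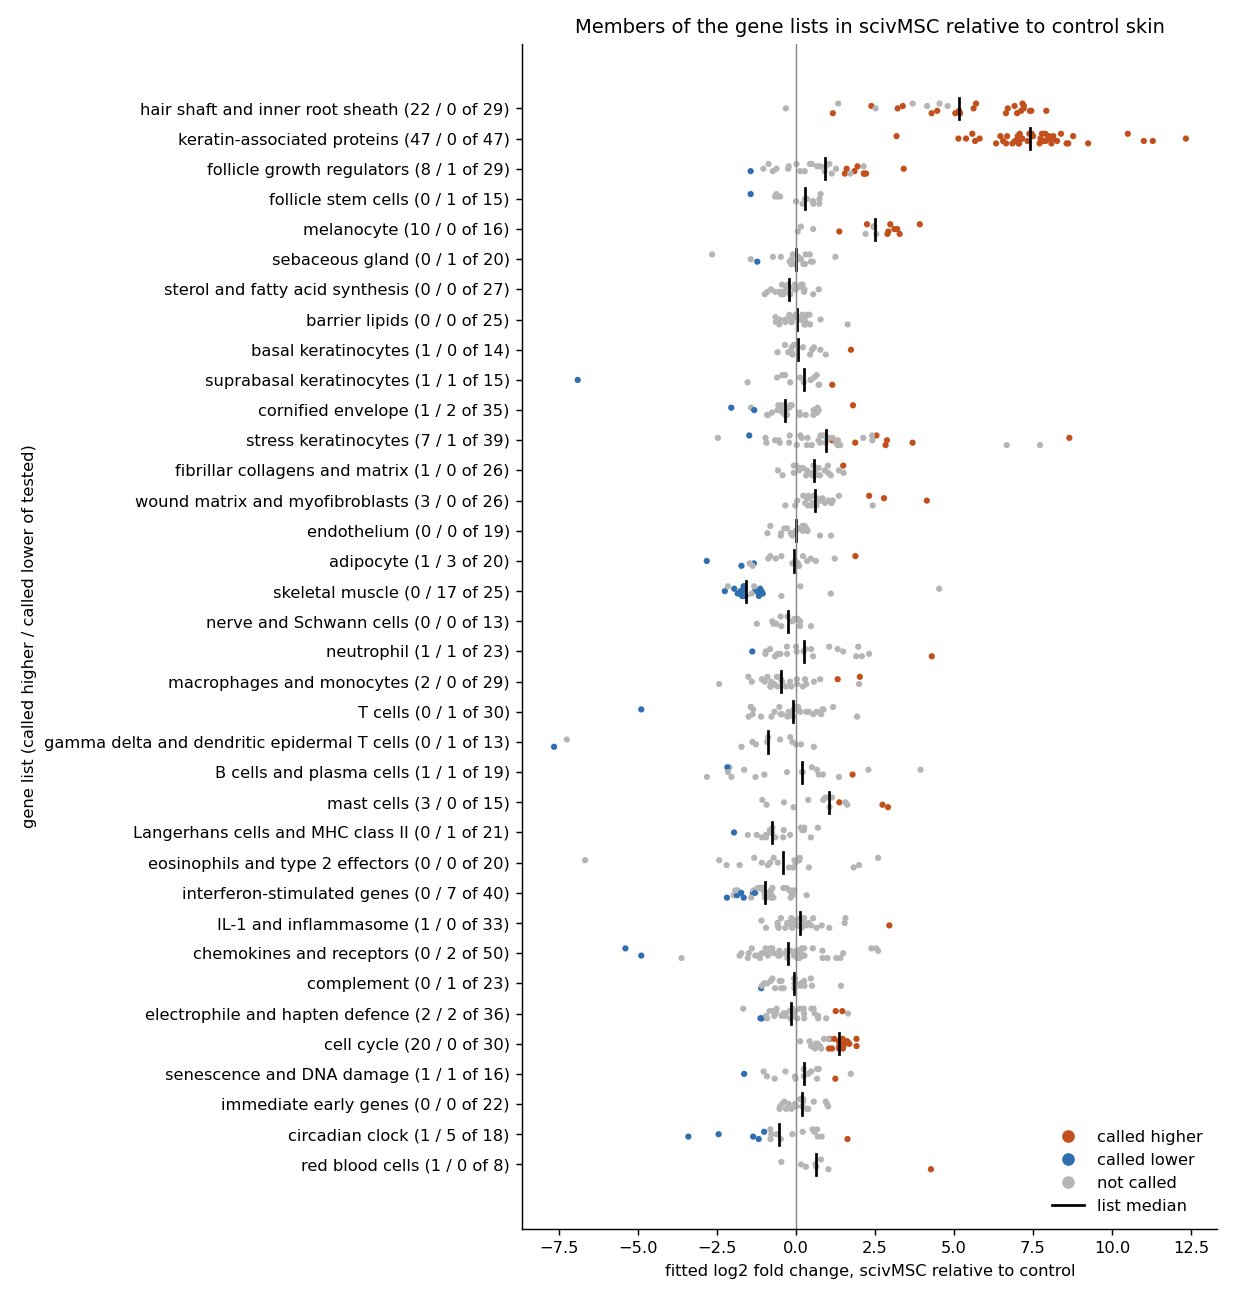
Fitted log2 fold change of every tested member of the 36 gene lists, scivMSC relative to control, with 1 point a gene, coloured by whether it was called, and a bar at the list median. Hair genes, melanocyte genes and cell cycle genes lie to the right with medians of 7.40, 5.16, 2.51 and 1.36, skeletal muscle genes lie to the left with a median of -1.60, and most immune lists straddle 0.

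The promoters of these hair genes are shown because the genes moved together and share a plain feature. Sequences are those of RefSeq on GRCm38.p6, from 250 bases before the transcription start to 50 after it, read 5′ to 3′ on the gene's strand, and capitals mark the TATA box letters TATAAA. The promoter of Krtap8-1 is at chr16:89487903-89488202 on the minus strand, that of Krtap13-1 at chr16:88728612-88728911 on the plus strand, that of Krtap3-1 at chr11:99566581-99566880 on the minus strand, and that of Krt27 at chr11:99351069-99351368 on the minus strand.
Krtap8-1: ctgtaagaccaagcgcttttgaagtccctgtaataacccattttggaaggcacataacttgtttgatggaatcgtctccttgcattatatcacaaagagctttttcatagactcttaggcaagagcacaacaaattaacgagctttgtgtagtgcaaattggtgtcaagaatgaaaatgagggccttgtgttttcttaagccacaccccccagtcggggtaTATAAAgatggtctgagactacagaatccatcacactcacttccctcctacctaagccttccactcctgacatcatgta
Krtap13-1: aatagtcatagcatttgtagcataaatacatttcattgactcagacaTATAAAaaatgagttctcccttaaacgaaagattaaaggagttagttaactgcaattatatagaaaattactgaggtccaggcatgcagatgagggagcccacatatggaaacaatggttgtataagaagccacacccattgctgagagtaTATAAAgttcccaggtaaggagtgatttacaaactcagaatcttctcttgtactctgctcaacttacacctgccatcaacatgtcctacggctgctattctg
Krtap3-1: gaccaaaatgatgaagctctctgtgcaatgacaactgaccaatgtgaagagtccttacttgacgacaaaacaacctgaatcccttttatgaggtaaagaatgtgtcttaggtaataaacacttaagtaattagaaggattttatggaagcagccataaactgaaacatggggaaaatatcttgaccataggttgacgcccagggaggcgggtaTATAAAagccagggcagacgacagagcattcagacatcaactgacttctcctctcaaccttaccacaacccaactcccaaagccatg
Krt27: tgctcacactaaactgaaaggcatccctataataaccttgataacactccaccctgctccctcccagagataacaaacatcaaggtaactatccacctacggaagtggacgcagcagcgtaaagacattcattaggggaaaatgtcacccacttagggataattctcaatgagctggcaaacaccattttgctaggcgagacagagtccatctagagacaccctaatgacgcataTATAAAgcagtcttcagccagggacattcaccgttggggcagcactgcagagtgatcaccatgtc
Of the 47 listed keratin-associated protein genes, 42 had a promoter in the table. TATAAA was found on the gene's strand in 35 of these (83.3%), against 8.9% of all 27025 promoters, and it started between 40 and 20 bases before the transcription start in 26 of the 42, against 2.2% of all. For the hair shaft and inner root sheath genes the letters were in 11 of 24 promoters (45.8%). In Krt27 they started at position -15 relative to the transcription start, outside that window. The 2 matches printed for Krtap13-1, the first at -203, also both started outside it. A match of letters is a description of the sequence and not a test of what binds there.

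Krtap8-1, a high glycine-tyrosine protein of the hair shaft, was at 1.46, 6.24 and 0.464 FPKM in the control libraries and at 848, 268 and 483 FPKM in the scivMSC libraries. The groups did not overlap, and the lowest treated library was far above the highest control library. Its log2 fold change was 7.40 ± 1.19 (adjusted p = 0.00557), for 3 against 3 libraries. Here and below, ± gives the SE from the model of all 12 libraries. The DNCB libraries had 20.5, 6.07 and 43.1 FPKM. Krtap15 went from 0.188, 0.387 and 0.0512 FPKM in control to 235, 82.6 and 137 FPKM in scivMSC skin, a log2 fold change of 9.25 ± 1.20 (adjusted p = 0.00391), with 2.89, 0.811 and 8.90 FPKM in DNCB skin. Krtap14 lies on the opposite strand across Krtap15, so that reads of the pair cannot be told apart without strand. Krtap13-1 stood at 0.0612 to 0.645 FPKM in control and 40.1 to 143 FPKM in scivMSC skin (log2 fold change 8.0 ± 1.02, adjusted p = 0.00388). Krtap7-1 stood at 0.26 to 4.54 FPKM in control and 228 to 719 FPKM in scivMSC skin (7.46 ± 1.21, adjusted p = 0.00558). The smallest change of the list was that of Krtap3-2, at 4.65 to 7.37 FPKM in control and 30.6 to 106 FPKM in scivMSC skin (3.18 ± 0.74, adjusted p = 0.0191, lost without control 1, control 2, control 3 or scivMSC 1, up to 0.0799). Without control 2 the log2 fold change was 8.87 for Krtap8-1, 10.003 for Krtap15, 9.06 for Krtap13-1 and 8.52 for Krtap7-1. Near-identical members of this family can share reads, and the value of a single member is uncertain for that reason.

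Of the 12 higher genes that met the rule for naming, 9 were hair genes. The rule took the highest fitted fold changes with all treated libraries above control. Krtap12-1, Krtap31-1, Krtap19-1, Krtap31-2, Krtap5-1, Krtap9-5, Krtap29-1 and Krtap27-1 were listed at 0 in every control library, as was the keratin Krt39. A fitted fold change against 0 has no fixed size, and neither has the rank that rests on it. Bounds are therefore given against a floor of 3 fragments (12 estimated counts) per control library, which covers counting error only. Genes at 0 in control met the minimum mean of 1 FPKM through the other groups alone. Krtap12-1, at 20.8, 5.25 and 12.8 FPKM in scivMSC skin, was at least 45.5-fold higher than in control (adjusted p = 0.00454). Krt39, at 6.24, 2.71 and 1.62 FPKM, was at least 30.3-fold higher (adjusted p = 0.00882). For Krtap31-1 the bound was 27.2-fold, for Krtap19-1 22.0-fold, for Krtap31-2 21.5-fold and for Krtap5-1 18.1-fold, with adjusted p of 0.0117, 0.0118, 0.0094 and 0.00657. It was 12.7-fold for Krtap9-5, 10.7-fold for Krtap29-1 and 10.2-fold for Krtap27-1, with adjusted p of 0.0195, 0.00793 and 0.00454. All of these kept an adjusted p under 0.05 with any one compared library left out except Krtap9-5, which had 0.0586 without control replicate 1.

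The other 3 were outside the keratin families. Spink12, a Kazal-type serine protease inhibitor gene, was listed at 0 in every control library and at 14.1, 7.10 and 6.62 FPKM in scivMSC skin, at least 49.6-fold higher (adjusted p = 0.00388). The DNCB libraries, at 25.1, 5.73 and 9.56 FPKM, overlapped the treated ones, and the log2 difference between scivMSC and DNCB skin was -0.53 ± 0.62 (adjusted p = 0.684). Calhm4, of the calcium homeostasis modulator family of channels, was at 12.5, 4.44 and 5.81 FPKM in scivMSC skin, at least 223-fold above the control floor (adjusted p = 0.00546). Sct, which encodes the hormone secretin, was at 7.35, 1.49 and 9.13 FPKM in scivMSC skin and at 0 in control, at least 21.1-fold higher (adjusted p = 0.00654). DNCB skin had 0.0164 to 1.53 FPKM of Calhm4 and 0.0245 to 0.678 FPKM of Sct.

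In the inner root sheath and the shaft, Tchh, the trichohyalin gene, was at 2.30, 32.6 and 1.26 FPKM in control and at 1159.9, 461 and 571 FPKM in scivMSC skin. The second control library was above the other control libraries but well under the lowest treated one. The log2 fold change was 5.70 ± 1.25 (adjusted p = 0.0153), and the call was lost without control 1, at 0.0511, log2 5.13 (without control 3) to 8.46 (without control 2). Krt27, an inner root sheath keratin, was at 1.74, 46.0 and 0.565 FPKM in control and 1037, 413 and 569 FPKM in scivMSC skin (5.16 ± 1.42, adjusted p = 0.0369, lost without control 1, scivMSC 1 or scivMSC 2, up to 0.0995, log2 4.56 (without control 3) to 8.96 (without control 2)). The groups did not overlap here either, and control replicate 2 again was the highest control. Krt72, a keratin of the same layer, rose, with 0.081 to 2.10 FPKM in control and 84.7 to 252 FPKM in scivMSC skin (7.45 ± 1.28, adjusted p = 0.00658). So did the shaft keratin Krt33a, with 0.228 to 0.972 FPKM in control and 45.3 to 140.0 FPKM in scivMSC skin (7.21 ± 1.05, adjusted p = 0.0048). Gprc5d, an orphan receptor of hair-forming cells, rose, with 0.0404 to 0.697 FPKM in control and 25.4 to 83.6 FPKM in scivMSC skin (7.20 ± 1.12, adjusted p = 0.00542). Krt72, Krt33a and Gprc5d kept their call with any compared library left out, with log2 fold changes of 9.82, 8.14 and 8.40 without control 2. Padi3, an enzyme that citrullinates trichohyalin, and S100a3, a calcium-binding protein of the cuticle, also rose. Padi3 rose by 5.19 ± 1.21 (adjusted p = 0.0194, lost without control 1 or scivMSC 1, up to 0.0642, log2 4.6 (without control 3) to 8.21 (without control 2)). S100a3 rose by 5.04 ± 1.22 (adjusted p = 0.0219, lost without control 1 or scivMSC 1, up to 0.0842, log2 4.44 (without control 3) to 7.15 (without control 2)). Msx2, a homeobox factor of the matrix, rose, with 0.905 to 4.99 FPKM in control and 10.5 to 18.7 FPKM in scivMSC skin (2.39 ± 0.65, adjusted p = 0.035, lost without control 1, control 3, scivMSC 1, scivMSC 2 or scivMSC 3, up to 0.128, log2 1.93 (without control 3) to 3.35 (without control 2)).

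**Figure D2:**
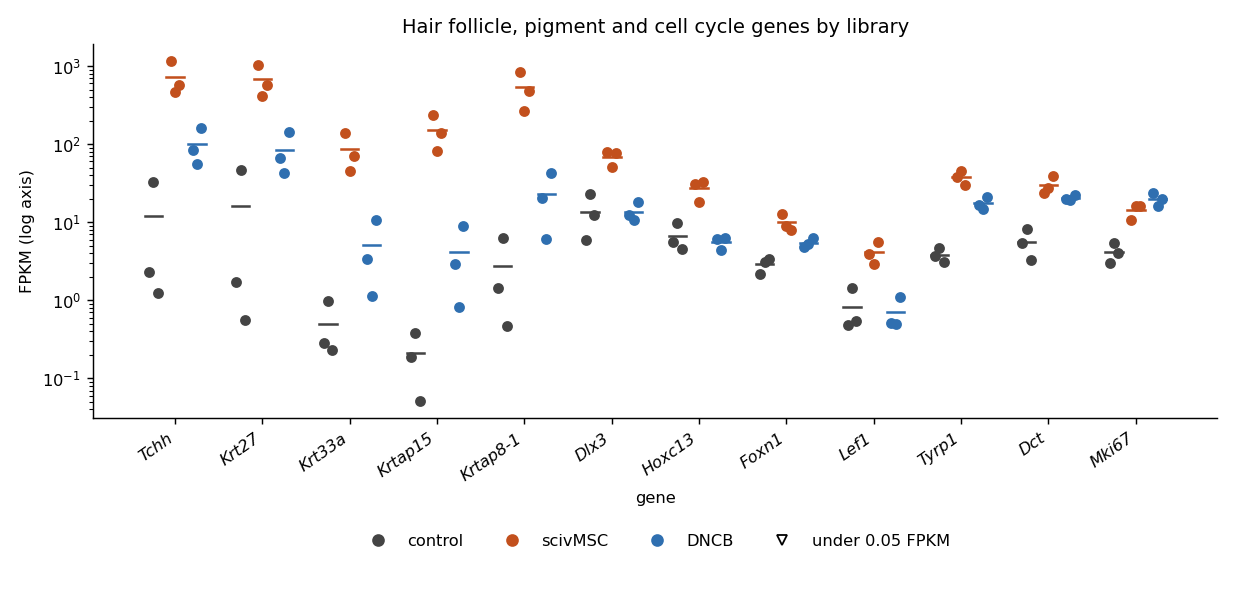
FPKM on a log axis of 12 hair follicle, pigment and cell cycle genes in each of the 3 control, 3 scivMSC and 3 DNCB libraries, with a bar at the group mean and open triangles for values under 0.05 FPKM. For Krtap8-1 the scivMSC points lie at 268 to 848 FPKM and the control points at 0.464 to 6.24 FPKM, and for Hoxc13 the DNCB points, at 4.38 to 6.33 FPKM, overlap the control points.

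Regulators of hair growth moved less than the structural genes. Of 29 tested, 8 were called higher and 1 lower, with a median log2 fold change of 0.90. The count higher was 3 without control 1, 4 without control 3 or scivMSC 1, and 5 without scivMSC 2. Foxn1, the winged-helix factor lost in nude mice, was at 2.18, 3.08 and 3.40 FPKM in control and 12.9, 9.03 and 7.88 FPKM in scivMSC skin, and no library crossed. Its log2 fold change was 1.60 ± 0.31 (adjusted p = 0.00936). Corin, a protease of the dermal papilla, rose, with 0.272 to 0.722 FPKM in control and 1.78 to 2.92 FPKM in scivMSC skin (2.22 ± 0.41, adjusted p = 0.00844), and like Foxn1 it was called with any compared library left out. Hoxc13, a homeobox factor of hair differentiation, rose from 5.54, 9.75 and 4.56 FPKM to 30.7, 17.9 and 32.5 FPKM (1.85 ± 0.40, adjusted p = 0.0152, lost without control 1, at 0.0646), with 6.15, 4.38 and 6.33 FPKM in DNCB skin. Dlx3, a homeobox factor that acts upstream of hair keratins, rose, with 5.90 to 22.9 FPKM in control and 51.6 to 79.8 FPKM in scivMSC skin (2.16 ± 0.48, adjusted p = 0.0161, and 2.75 on the log2 scale without control 2).

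Calls were less firm for the signalling members. Lef1, which carries the Wnt signal in matrix cells, had a log2 fold change of 2.15 ± 0.55 (adjusted p = 0.028, lost without control 1, control 3, scivMSC 1 or scivMSC 3, up to 0.106, log2 1.80 (without scivMSC 3) to 2.82 (without control 2)). Wnt5a, a Wnt ligand, had 1.54 ± 0.38 (adjusted p = 0.0223, lost without control 1, control 3, scivMSC 1 or scivMSC 2, up to 0.0795). Dlx2, a homeobox factor, had 1.95 ± 0.56 (adjusted p = 0.045, lost without control 1, control 3, scivMSC 1, scivMSC 2 or scivMSC 3, up to 0.157, log2 1.47 (without control 3) to 2.97 (without control 2)). Fgf5 and Fgf18 are fibroblast growth factors with opposite places in the hair cycle, the first ending growth and the second holding follicles at rest. Fgf5 was at 0.115, 0.0977 and 0.14 FPKM in control and 2.11, 1.35 and 0.892 FPKM in scivMSC skin (3.41 ± 0.97, adjusted p = 0.042, lost without control 1, control 2, control 3, scivMSC 1 or scivMSC 2, up to 0.131). Fgf18 was at 8.33, 5.55 and 5.63 FPKM in control and 2.37, 1.70 and 3.99 FPKM in scivMSC skin (-1.44 ± 0.40, adjusted p = 0.0393, lost without control 1, control 2, scivMSC 1 or scivMSC 2, up to 0.128), and it was the one member called lower. The groups did not overlap for either, with every treated library above control for Fgf5 and below it for Fgf18. In the list of 15 follicle stem cell genes, which also holds Fgf18, no other gene was called and the median log2 fold change was 0.28.

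Most melanocyte genes rose. Of 16 tested, 10 were called higher and none lower, with a median log2 fold change of 2.51 (1.63 for DNCB relative to control). The count was 4 without control 1 and 4 with the 6 libraries fitted alone. Tyrp1, a melanosomal enzyme of pigment synthesis, was at 3.66, 4.68 and 3.13 FPKM in control and 37.8, 45.3 and 30.4 FPKM in scivMSC skin. Every treated library was several times the highest control, and DNCB libraries lay between the groups at 16.8, 14.6 and 21.3 FPKM. The log2 fold change was 3.11 ± 0.28 (adjusted p = 0.00119), and the further difference between scivMSC and DNCB skin was 1.11 ± 0.26 (adjusted p = 0.0289). Dct, dopachrome tautomerase of the same pathway, rose, with 3.27 to 8.12 FPKM in control and 23.9 to 39.4 FPKM in scivMSC skin (2.25 ± 0.41, adjusted p = 0.008). Tyr, tyrosinase, rose, with 0.209 to 0.809 FPKM in control and 3.37 to 5.45 FPKM in scivMSC skin (2.89 ± 0.51, adjusted p = 0.00711). Pmel, a scaffold of the melanosome, rose by 2.46 on the log2 scale (adjusted p = 0.0165, lost without control 1, at 0.0616). Mlana, a melanosomal membrane protein, rose by 2.92 (adjusted p = 0.0257, lost without control 1 or scivMSC 3, up to 0.0953, log2 2.33 (without scivMSC 3) to 3.80 (without control 2)). Cdk2 lies opposite Pmel and can share its reads. The 6 not called differed in size. Mitf, Ednrb and Sox10 had log2 fold changes of 0.54, 0.15 and 0.05. Slc45a2, Slc24a5 and Mc1r had 2.54, 2.48 and 2.20. In bulk skin, more or fewer cells of a type and more or less RNA per cell cannot be told apart, here or in any other list.

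Most cell cycle genes rose. Of 30 tested, 20 were called higher and none lower, with a median log2 fold change of 1.36, against 1.84 for DNCB relative to control. The count was 7 without control 1 or scivMSC 2, 10 without control 3 or scivMSC 3, and 7 with the 6 libraries fitted alone. Mki67, the proliferation antigen Ki67, was at 2.99, 5.35 and 4.00 FPKM in control and 10.6, 16.0 and 16.2 FPKM in scivMSC skin. All treated libraries were above all controls, and the DNCB libraries were at 23.5, 16.1 and 19.6 FPKM. Its log2 fold change was 1.62 ± 0.32 (adjusted p = 0.00997). Bub1, a spindle checkpoint kinase, rose by 1.92 ± 0.36 (adjusted p = 0.00911). Cenpe, a kinetochore motor, rose by 1.91 ± 0.37 (adjusted p = 0.00941). These calls held with any compared library left out. Ccnb1 and Ccnb2, the mitotic cyclins, both rose by 1.47 (Ccnb1 adjusted p = 0.0151, lost without control 1 or scivMSC 2, up to 0.0581; Ccnb2 adjusted p = 0.0365, lost without control 1, control 3, scivMSC 2 or scivMSC 3, up to 0.108). Top2a, topoisomerase II, rose by 1.5 (adjusted p = 0.028, lost without control 1, control 3, scivMSC 2 or scivMSC 3, up to 0.0932). Lmnb1, a nuclear lamin of dividing cells, rose by 1.24 (adjusted p = 0.0223, lost without control 1, control 3, scivMSC 2 or scivMSC 3, up to 0.0907).

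The promoter of Ccnb2, at chr9:70421505-70421804 on the minus strand of GRCm38.p6, is printed with its CCAAT boxes in capitals, as an example of the letters that recur in promoters of the cell cycle list.
Ccnb2: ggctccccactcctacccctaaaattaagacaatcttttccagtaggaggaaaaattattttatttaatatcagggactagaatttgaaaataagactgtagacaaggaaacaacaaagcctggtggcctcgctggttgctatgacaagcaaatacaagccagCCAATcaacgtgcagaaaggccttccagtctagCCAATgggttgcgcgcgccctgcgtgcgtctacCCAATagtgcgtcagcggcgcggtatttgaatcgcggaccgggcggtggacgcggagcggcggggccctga
CCAAT on either strand was found in 20 of the 25 cell cycle promoters in the table (80.0%), against 37.9% of all promoters, and TTTGAA, the letters of the cell cycle homology region, in 13 of 25 (52.0%), against 18.1%.

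In the epidermis between follicles, of 14 basal keratinocyte genes 1 was called higher, of 15 suprabasal genes 1 was called higher and 1 lower, and of 35 cornified envelope genes 1 was called higher and 2 lower, beside 6.85% called in either direction among all genes. The median log2 fold changes were 0.08, 0.24 and -0.34, against 0.97, 0.25 and -2.45 for DNCB relative to control. None of 25 genes of barrier lipid synthesis and none of 27 genes of sterol and fatty acid synthesis was called (medians 0.03 and -0.22).

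The lowest fold change that met the rule for naming was that of Krt77, a type II keratin of the suprabasal epidermis and sweat ducts. It was at 782, 694 and 1030.3 FPKM in control skin, 10.6, 7.07 and 5.87 FPKM in scivMSC skin and 1.45, 0.162 and 0.636 FPKM in DNCB skin. The mean in treated skin was 0.939% of the control mean, and every treated library lay above every DNCB library. The log2 fold change from control was -6.91 ± 0.92 (adjusted p = 0.00435) and that from DNCB was 3.39 ± 0.79 (adjusted p = 0.0274); the first was called with any compared library left out. For the main suprabasal and basal keratins the groups overlapped. Krt10 was at 2090.2, 3722 and 5395 FPKM in control and 5264, 6219 and 3484 FPKM in scivMSC skin (0.24 ± 0.37, adjusted p = 0.734). Krt14, the basal keratin, was at 737, 745 and 1202 FPKM and 1171, 3391 and 1275 FPKM (0.94 ± 0.37, adjusted p = 0.124).

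Of the envelope genes, Lce1m, of the late cornified envelope cluster, was at 175, 221 and 325 FPKM in control and 85.5, 51.2 and 58.7 FPKM in scivMSC skin (-2.05 ± 0.48, adjusted p = 0.0195, lost without scivMSC 2, at 0.078). All treated libraries were below all controls and above the DNCB libraries, which had 3.63, 1.45 and 2.52 FPKM. Cldn23, a claudin of tight junctions, followed the same order, at 5.27, 5.35 and 7.56 FPKM in control, 3.40, 2.60 and 2.19 FPKM in scivMSC and 0.272, 0.376 and 0.362 FPKM in DNCB skin (-1.32 ± 0.28 against control, adjusted p = 0.0134, lost without scivMSC 2, at 0.0541). For Lor, loricrin, scivMSC and control libraries overlapped at 1805, 1241 and 1189 and 1167, 1907 and 2379.6 FPKM (-0.54 ± 0.34, adjusted p = 0.35). They also overlapped for Flg, filaggrin, at 137, 117 and 92.5 and 13.9, 57.9 and 123 FPKM (0.68 ± 0.54, adjusted p = 0.465). Rptn, repetin, was the envelope gene called higher, at 3.88, 14.5 and 10.8 FPKM in control, 32.4, 55.0 and 28.4 FPKM in scivMSC and 113, 110.5 and 68.6 FPKM in DNCB skin (1.80 ± 0.43, adjusted p = 0.0203, lost without control 3 or scivMSC 2, up to 0.0755). Calml3, a calmodulin-like protein of differentiating keratinocytes, rose by 1.15 ± 0.21 (adjusted p = 0.00781, lost by the fold limit without control 1, at 0.91). Cdh3, P-cadherin of basal and hair matrix cells, rose by 1.74 ± 0.28 (adjusted p = 0.00558). Cdh3 kept the call with any compared library left out.

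**Figure D3:**
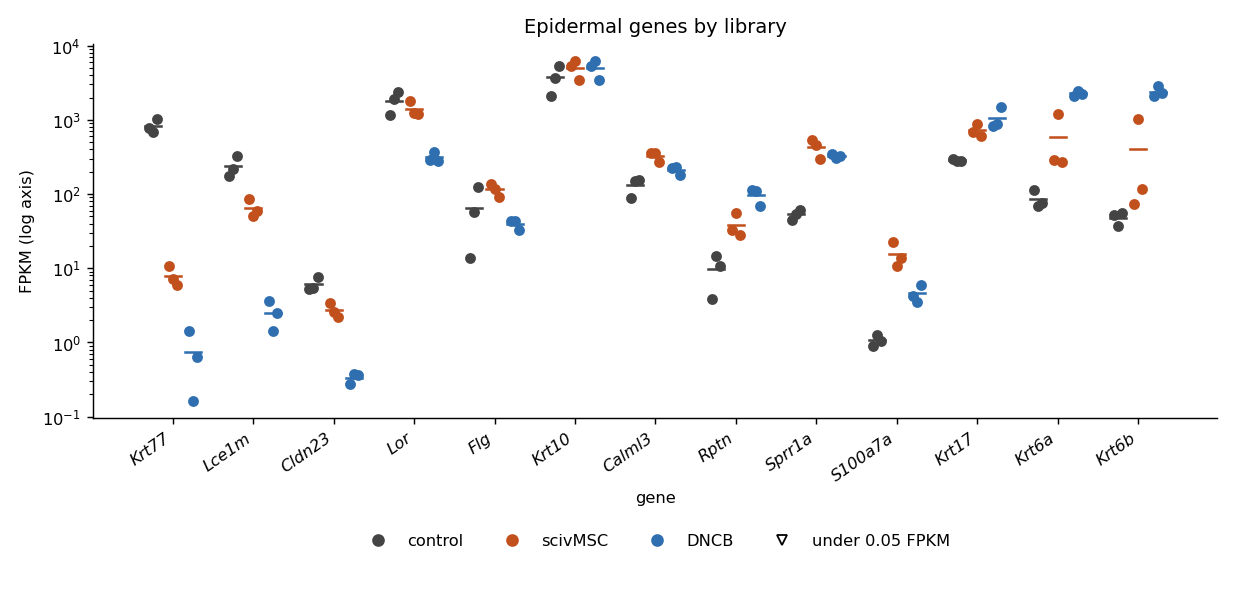
FPKM on a log axis of 13 epidermal genes in the 3 control, 3 scivMSC and 3 DNCB libraries, with a bar at the group mean. Krt77 falls from 694 to 1030.3 FPKM in control to 5.87 to 10.6 FPKM in scivMSC skin, Krt10 overlaps in all groups, and scivMSC replicate 2 is far above the other scivMSC points for Krt6a and Krt6b.

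Some stress keratinocyte genes rose. Of 39 tested, 7 were called higher and 1 lower, with a median log2 fold change of 0.94, or 0.87 with the 2 genes at the control floor at their bound, and 2.71 for DNCB relative to control. The count higher was 3 without control 3 and 4 without control 1, control 2 or scivMSC 2. Sprr1a, a small proline-rich envelope precursor, was at 44.6, 53.9 and 60.9 FPKM in control, 536, 454 and 299.5 FPKM in scivMSC and 342, 302 and 324 FPKM in DNCB skin. Treated libraries were all above control and overlapped the DNCB libraries, with log2 fold changes of 2.83 ± 0.39 from control (adjusted p = 0.00441) and 0.41 ± 0.37 from DNCB (adjusted p = 0.574). S100a7a, a psoriasin-like calcium-binding protein, was at 0.887, 1.26 and 1.05 FPKM in control, 22.8, 10.6 and 13.6 FPKM in scivMSC and 4.28, 3.55 and 6.03 FPKM in DNCB skin, and it was higher in every treated library than in any control or DNCB library (3.69 ± 0.52 from control, adjusted p = 0.00454). Sprr2k, listed at 0 in all controls, was at least 3.52-fold higher at 0.587, 2.10 and 0.45 FPKM (adjusted p = 0.00985). These 3 calls held with any compared library left out.

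The keratins of wounded and hyperproliferative epidermis were uneven across the treated libraries. Krt6a was at 115, 69.5 and 75.7 FPKM in control and 289, 1187 and 268 FPKM in scivMSC skin (2.54 ± 0.58, adjusted p = 0.0173, lost without control 2 or control 3, up to 0.065, log2 1.53 (without scivMSC 2) to 2.87 (without scivMSC 1)). Krt6b was at 51.5, 36.7 and 54.8 FPKM and 72.7, 1021 and 117 FPKM (2.88 ± 0.80, adjusted p = 0.0384, lost without control 1, control 2, control 3 or scivMSC 2, up to 0.141, log2 0.86 (without scivMSC 2) to 3.37 (without scivMSC 1)). In both, scivMSC replicate 2 was several times higher than the other treated libraries, which lay far below the DNCB libraries at 2071 to 2487 and 2131 to 2828 FPKM. Krt16 had the same pattern, at 62.1, 97.1 and 139.6 FPKM and 169.9, 1491 and 167 FPKM, and did not pass the test (2.42 ± 0.80, adjusted p = 0.072). Krt17, a keratin of follicles and stressed epidermis, was closer together, at 677, 882 and 600.3 FPKM against 297, 281 and 283 FPKM (1.14 ± 0.29, adjusted p = 0.0257, lost without control 1, control 2, control 3, scivMSC 1 or scivMSC 2, up to 0.0906). Areg, the growth factor amphiregulin, rose, with 1.21 to 1.62 FPKM in control and 3.59 to 7.05 FPKM in scivMSC skin (1.87 ± 0.45, adjusted p = 0.0207, lost without control 1, control 3, scivMSC 1 or scivMSC 2, up to 0.0797). Sprr2b was lower than control, at 4.84, 6.69 and 5.66 FPKM against 9.03, 11.8 and 22.2 FPKM (-1.48 ± 0.36, adjusted p = 0.0219, lost without control 3, scivMSC 1 or scivMSC 2, up to 0.0816).

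Genes of neutrophils and of the IL-1 system were counted beside the 6.85% called among all genes. Of 23 neutrophil genes 1 was called higher and 1 lower (median log2 fold change 0.24, and 4.74 for DNCB relative to control), and of 33 IL-1 and inflammasome genes 1 was called higher (median 0.13). Il1b, the inflammasome-processed cytokine IL-1β, was at 5.80, 0.608 and 5.25 FPKM in control, 1.31, 10.1 and 7.52 FPKM in scivMSC and 208, 179 and 99.8 FPKM in DNCB skin. Treated and control libraries overlapped, with a log2 difference of 0.54 ± 0.97 (adjusted p = 0.777), and the DNCB libraries were apart from both. Nlrp3, the inflammasome sensor, overlapped in the same way at 0.804, 0.0706 and 0.617 and 0.288, 1.09 and 0.613 FPKM (0.25 ± 0.86, adjusted p = 0.894). The groups also overlapped for S100a8 and S100a9, the calprotectin genes of neutrophils and stressed keratinocytes, for S100a8 at 44.5, 42.7 and 67.8 and 11.2, 67.3 and 31.7 FPKM (-0.66 ± 0.54, adjusted p = 0.476) and for S100a9 with -0.97 ± 0.66 (adjusted p = 0.382). Tnf had 1.14 ± 0.68 (adjusted p = 0.315) and Il33, an alarmin of keratinocytes, -0.58 ± 0.56 (adjusted p = 0.564). A difference that missed the threshold with 3 libraries a group and errors of this size is not shown to be 0.

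The genes called were Retnlg and G0s2 of the neutrophil list and the gasdermin Gsdma2 of the IL-1 and inflammasome list. Retnlg, a resistin-like gene of neutrophils, was at 0, 0 and 0.36 FPKM in control and 1.09, 6.49 and 0.436 FPKM in scivMSC skin (4.30 ± 1.23, adjusted p = 0.043, lost without control 1, control 2, scivMSC 1 or scivMSC 2, up to 0.186, log2 2.54 (without scivMSC 2) to 9.91 (without control 3)), against 49.2 to 103 FPKM in DNCB skin. G0s2, an inhibitor of fat breakdown that neutrophils and fat cells both express, fell by 1.38 (adjusted p = 0.0327, lost without control 1, control 2, scivMSC 1 or scivMSC 2, up to 0.111). Gsdma2, a gasdermin of differentiating epithelium, was at 0.0952, 0.0697 and 0.0725 FPKM in control, 0.524, 1.21 and 0.485 FPKM in scivMSC and 0.0477, 0.107 and 0.153 FPKM in DNCB skin (2.95 ± 0.66, adjusted p = 0.0169, lost without control 1, control 2, control 3 or scivMSC 2, up to 0.0629). All treated libraries were above all others for Gsdma2, at low levels.

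Single members of several immune lists were called lower, beside 3.35% called lower among all genes. Ccr4, a chemokine receptor of skin-homing T cells, was at 1.86, 1.64 and 3.00 FPKM in control, 0.0992, 0.0823 and 0.0554 FPKM in scivMSC and 0.0436, 0.0296 and 0.0848 FPKM in DNCB skin. It was below every control library in both the scivMSC and the DNCB libraries, with a log2 fold change of -4.90 ± 0.44 from control (adjusted p = 0.00119, at most 0.00937 with one library left out). Other T cell genes were not called, and the median of the 30 tested was -0.11. Trgv5, a variable segment of the gamma T cell receptor, was listed at 0.588, 0.585 and 1.4 FPKM in control and at 0 in all scivMSC libraries, at least 2.16-fold lower against the floor (adjusted p = 0.0228, lost without control 1, scivMSC 1 or scivMSC 2, up to 0.0634). It was the one called of 13 gamma delta T cell genes. Ccl19, a chemokine that guides CCR7-bearing cells, was at 1.3, 0.633 and 0.562 FPKM in control and 0, 0 and 0.0602 FPKM in scivMSC skin, at least 5.43-fold lower (adjusted p = 0.0237, lost without control 1, scivMSC 1 or scivMSC 2, up to 0.0705), with 0.549, 0.393 and 0.535 FPKM in DNCB skin. Mgl2, a lectin of dermal dendritic cells and macrophages, was at 7.03, 6.74 and 14.8 FPKM in control, 4.88, 2.44 and 0.948 FPKM in scivMSC and 1.04, 1.01 and 0.481 FPKM in DNCB skin (-1.96 ± 0.55, adjusted p = 0.0407, lost without control 1, control 2, control 3, scivMSC 2 or scivMSC 3, up to 0.129, log2 -2.65 (without scivMSC 1) to -1.59 (without control 3), and with library size as the only scaling). Cd207, langerin of Langerhans cells, was at 5.53, 5.39 and 6.84 FPKM and 9.80, 7.11 and 6.90 FPKM (0.25 ± 0.39, adjusted p = 0.743). Ighm, the IgM heavy chain constant gene, was at 12.7, 9.76 and 20.8 FPKM in control and 4.80, 4.22 and 1.81 FPKM in scivMSC skin, with no overlap (-2.17 ± 0.43, adjusted p = 0.01, at most 0.0347). Derl3, a gene of the plasma cell secretory pathway, rose by 1.79 at levels under 1 FPKM (adjusted p = 0.0377, lost without control 1, control 2, control 3, scivMSC 2 or scivMSC 3, up to 0.132).

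**Figure D4:**
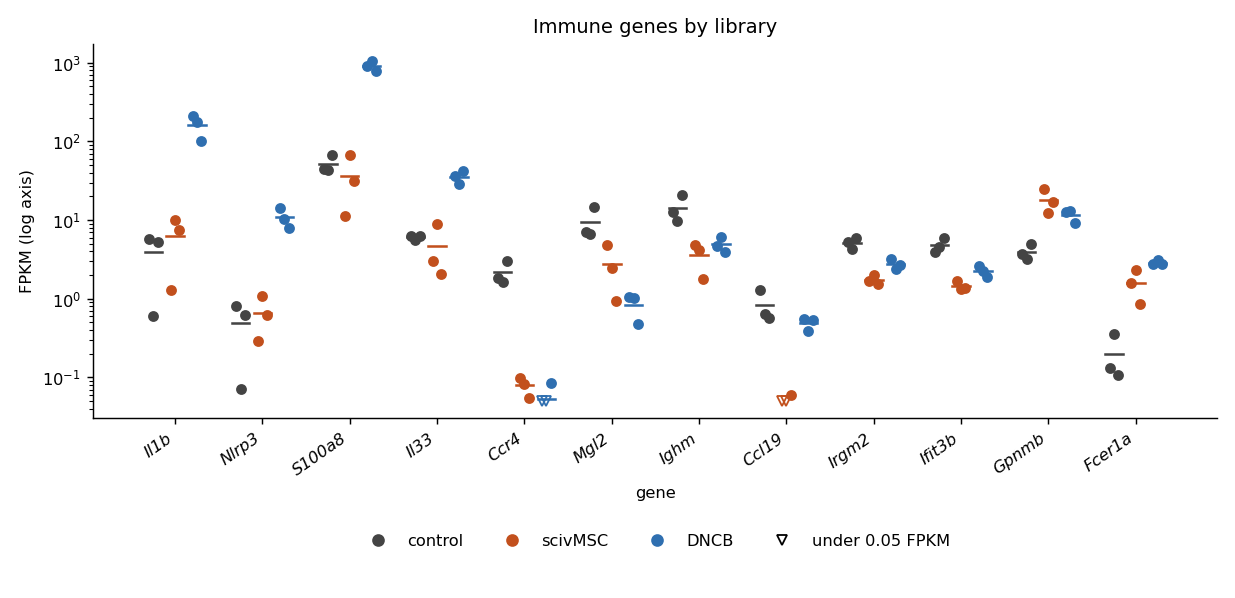
FPKM on a log axis of 12 immune genes in the 3 control, 3 scivMSC and 3 DNCB libraries, with a bar at the group mean and open triangles under 0.05 FPKM. Control and scivMSC points overlap for Il1b, Nlrp3 and S100a8, whereas Ccr4 is at 1.64 to 3.00 FPKM in control and 0.0554 to 0.0992 FPKM in scivMSC skin, and Irgm2 and Ifit3b lie below control in all scivMSC libraries.

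Some interferon-stimulated genes fell. Of 40 tested, 7 were called lower and none higher, and the median log2 fold change was -0.98 (-0.54 for DNCB relative to control). With library size as the only scaling the count was 4, with relative log expression size factors it was 10, with DESeq2 it was 14, with limma on log2(FPKM + 1) it was 2, without scivMSC 1 it was 3, and without control 3 or scivMSC 2 it was 4. Irgm2, an immunity-related GTPase, was at 5.19, 4.32 and 5.96 FPKM in control, 1.69, 2.03 and 1.52 FPKM in scivMSC and 3.17, 2.37 and 2.72 FPKM in DNCB skin (-1.74 ± 0.31, adjusted p = 0.00719). The highest treated library was below the lowest control and below the lowest DNCB library. Igtp overlaps Irgm2 on the same strand, and their reads can be mixed. Ifit3b, an antiviral tetratricopeptide gene, was at 3.89, 4.51 and 5.97 FPKM, 1.71, 1.35 and 1.37 FPKM and 2.65, 2.25 and 1.92 FPKM in the same order (-1.87 ± 0.30, adjusted p = 0.00558). Irgm2 and Ifit3b kept the call with any compared library left out, and Psmb9, an immunoproteasome subunit, lost it once (-1.29 ± 0.30, adjusted p = 0.0178, lost without scivMSC 1, at 0.0663). The other 4 called were Irgm1, Gbp3, Iigp1 and Zbp1, with log2 fold changes of -1.09, -1.37, -1.66 and -2.19. Their adjusted p was 0.0264 for Irgm1 (lost without control 1, control 2, control 3, scivMSC 1 or scivMSC 3, up to 0.0962) and 0.033 for Gbp3 (lost without control 1, control 3, scivMSC 1, scivMSC 2 or scivMSC 3, up to 0.0855). It was 0.0244 for Iigp1 (lost without control 1, control 3, scivMSC 2 or scivMSC 3, up to 0.0708) and 0.0481 for Zbp1 (lost without any one of the 6 libraries, up to 0.161, log2 -2.58 (without scivMSC 2) to -1.46 (without control 3)).

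The promoters of Irgm2 (chr11:58214727-58215026, plus strand) and Ifit3b (chr19:34607707-34608006, plus strand) are printed because these members were the firmest of the list, with the core letters of the interferon response element, GAAANNGAA on either strand, in capitals.
Irgm2: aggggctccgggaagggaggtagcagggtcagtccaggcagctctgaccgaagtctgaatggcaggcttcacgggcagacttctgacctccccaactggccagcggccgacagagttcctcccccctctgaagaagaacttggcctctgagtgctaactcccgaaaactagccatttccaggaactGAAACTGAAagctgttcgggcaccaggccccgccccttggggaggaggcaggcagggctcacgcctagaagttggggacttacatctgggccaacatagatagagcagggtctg
Ifit3b: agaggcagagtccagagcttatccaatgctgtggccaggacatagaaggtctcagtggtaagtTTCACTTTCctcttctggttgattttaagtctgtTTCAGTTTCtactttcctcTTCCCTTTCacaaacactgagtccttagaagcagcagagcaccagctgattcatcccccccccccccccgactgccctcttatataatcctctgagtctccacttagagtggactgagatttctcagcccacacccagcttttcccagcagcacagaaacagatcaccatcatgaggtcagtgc
The letters were in 19 of the 31 promoters of this list found in the table (61.3%), against 8.6% of all promoters, and in 4 of the 5 that were called and had a promoter there.

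A few macrophage and mast cell genes were called higher, though most of the macrophage list was below 0. Of 29 macrophage and monocyte genes 2 were called higher, beside 3.5% among all genes. In that list 10 had a log2 fold change above 0, and the median was -0.48. Gpnmb, a glycoprotein of lipid-laden macrophages and of melanocytes, was at 3.68, 3.24 and 5.02 FPKM in control and 24.9, 12.2 and 17.2 FPKM in scivMSC skin (2.02 ± 0.31, adjusted p = 0.00523). It was above control in every treated library and kept the call with any compared library left out. Fcrls, an Fc receptor-like gene of macrophages that the rule named, was lower, at 2.96, 2.92 and 13.1 FPKM in control and 1.46, 0.774 and 0.151 FPKM in scivMSC skin (-3.15 ± 0.76, adjusted p = 0.0218, lost without control 3 or scivMSC 2, up to 0.0789, log2 -3.92 (without scivMSC 1) to -2.15 (without control 3)). Ifitm6, of the interferon-induced transmembrane family, was lower too, at 7.20, 3.55 and 8.09 FPKM and 0.709, 1.61 and 0.161 FPKM (-3.10 ± 0.73, adjusted p = 0.0201, lost without control 1 or scivMSC 1, up to 0.0749, log2 -3.99 (without scivMSC 2) to -2.66 (without scivMSC 3)). Of 15 mast cell genes 3 were called higher (median 1.05), and 11 had a log2 fold change above 0. Gata2, Ms4a2, Mrgprb2 and Hpgds were below 0, at -1.07, -0.93, -0.38 and -0.08, and were not called. Fcer1a, the IgE receptor alpha chain, rose, with 0.108 to 0.356 FPKM in control and 0.865 to 2.33 FPKM in scivMSC skin (2.74 ± 0.62, adjusted p = 0.0174, lost without control 1, control 3 or scivMSC 2, up to 0.0731, log2 2.38 (without scivMSC 2) to 3.43 (without control 2)). Tpsab1, a tryptase, rose, with 0.115 to 0.776 FPKM in control and 0.811 to 6.92 FPKM in scivMSC skin (2.91 ± 0.77, adjusted p = 0.0317, lost without control 1, control 2, control 3, scivMSC 1 or scivMSC 2, up to 0.104). Kit, which melanocytes share, rose by 1.37 ± 0.25 (adjusted p = 0.00781, at most 0.0342). The mast cell proteases Mcpt4, Cma1 and Cpa3 did not pass the test, with 31.4, 31.8 and 4.33, 22.8, 28.0 and 4.62 and 13.8, 15.9 and 1.53 FPKM in the scivMSC libraries against 7.76 to 14.3, 5.84 to 10.1 and 2.91 to 5.09 in control. They were high in scivMSC replicates 1 and 2 and below control in replicate 3, and without scivMSC 3 the list had 9 members called higher. It had 1 without control 1, control 3 or scivMSC 2.

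In the dermis collagens were uneven across the treated libraries. Of 26 wound matrix genes 3 were called higher (median log2 fold change 0.60, and 2.39 for DNCB relative to control), and of 26 collagen and matrix genes 1 was (median 0.58), beside 3.5% called higher among all genes. Lrrc15, a marker of activated fibroblasts that hair follicles also express, was at 1.64, 4.06 and 1.26 FPKM in control, 67.2, 42.7 and 31.9 FPKM in scivMSC and 46.2, 60.4 and 27.2 FPKM in DNCB skin (4.14 ± 0.71, adjusted p = 0.00649, and 4.81 on the log2 scale without control 2). The treated and DNCB libraries overlapped, with a log2 difference of 0.08 ± 0.62 (adjusted p = 0.969). Cthrc1, a secreted protein of wound fibroblasts, was at 1.09, 1.34 and 0.672 FPKM in control and 7.70, 14.7 and 2.55 FPKM in scivMSC skin (2.78 ± 0.54, adjusted p = 0.00968, and 2.11 on the log2 scale without scivMSC 2). Adam12, a metalloprotease, rose by 2.31 ± 0.62 (adjusted p = 0.0326, lost without control 1, control 2, control 3, scivMSC 1 or scivMSC 2, up to 0.118). Col12a1, a fibril-associated collagen, rose by 1.49 ± 0.30 (adjusted p = 0.0117, lost without control 1, at 0.06). Col1a1 was at 58.2, 46.6 and 56.1 FPKM in control and 191, 299.8 and 36.4 FPKM in scivMSC skin (1.5 ± 0.61, adjusted p = 0.134). Col3a1 was at 71.5, 57.4 and 92.8 FPKM and 207, 303 and 35.2 FPKM (1.10 ± 0.61, adjusted p = 0.274). For both collagens, scivMSC replicates 1 and 2 were above control and replicate 3 below it, and without scivMSC 3 the collagen list had 7 members called higher and the wound list 6. The wound list also had 6 with library size as the only scaling. The predicted gene Gm47302 overlaps Col3a1 on the same strand. None of 19 endothelial genes and none of 13 nerve genes was called (medians -0.00133 and -0.27).

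Most skeletal muscle genes, of the thin muscle sheet under mouse skin, fell. Of 25 tested, 17 were called lower and none higher (median log2 fold change -1.60, and -1.93 for DNCB relative to control), but 3 without scivMSC 1, 4 without scivMSC 2, 6 without control 1, 10 without control 2 and 4 with the 6 libraries fitted alone. Summed FPKM of the list was 26354 to 37450.4 in control and 7965 to 19139 in scivMSC skin. Mstn, myostatin, was at 54.0, 68.3 and 104 FPKM in control and 9.5, 12.7 and 14.8 FPKM in scivMSC skin (-2.77 ± 0.42, adjusted p = 0.00523, at most 0.0219). Casq1, calsequestrin, fell by 2.25 (adjusted p = 0.00752, and -2.88 on the log2 scale without scivMSC 3). Eno3, muscle enolase, fell by 1.85 (adjusted p = 0.0053). Each was lower in all treated libraries and kept the call with any compared library left out. Acta1, skeletal actin, was at 10668, 11236 and 7445 FPKM in control and 2539.8, 1863 and 5609 FPKM in scivMSC skin (-1.71 ± 0.45, adjusted p = 0.0297, lost without control 1, control 2, scivMSC 1 or scivMSC 2, up to 0.106, log2 -2.40 (without scivMSC 3) to -1.4 (without scivMSC 2)). Ckm, muscle creatine kinase, fell by 1.60 (adjusted p = 0.0149, lost without scivMSC 1 or scivMSC 2, up to 0.0596). Tnnc2, fast troponin C, fell by 1.96 (adjusted p = 0.0149, lost without scivMSC 1, at 0.0593, log2 -2.67 (without scivMSC 3) to -1.64 (without scivMSC 2)). Pvalb, parvalbumin of fast fibres, fell by 1.65 (adjusted p = 0.0327, lost without control 1, control 2, scivMSC 1 or scivMSC 2, up to 0.109, log2 -2.25 (without scivMSC 3) to -1.34 (without scivMSC 2)). Mamstr, a cofactor of the muscle factor MEF2, was at 5.14, 2.22 and 3.80 FPKM and 0.28, 0.543 and 0.657 FPKM (-3.06 ± 0.46, adjusted p = 0.00513). Myhas, an antisense RNA of the fast myosin cluster, fell by 2.78 (adjusted p = 0.0129, lost without scivMSC 2, at 0.056, log2 -3.54 (without scivMSC 3) to -2.21 (without control 1)), but it overlaps Myh1, and the strand of counting was not stated. How much of the muscle sheet each piece of skin held was not given in the sources used here, and its part was not tested.

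Fat and sebaceous genes were mixed. Of 20 adipocyte genes 3 were called lower and 1 higher (median log2 fold change -0.07). That is 15.0% and 5.0%, beside 3.35% and 3.5% among all genes. Lep, the adipocyte hormone leptin, was at 7.48, 5.31 and 2.25 FPKM in control, 0.601, 0.616 and 1.18 FPKM in scivMSC and 2.76, 2.70 and 7.39 FPKM in DNCB skin (-2.83 ± 0.57, adjusted p = 0.0115, lost without scivMSC 2, at 0.0508). It was lower in every treated library than in any control or DNCB library. Car3, a carbonic anhydrase of fat and muscle, was at 2195, 1876 and 1250.1 FPKM and 529, 543 and 744 FPKM (-1.73 ± 0.31, adjusted p = 0.00756). Gpd1, a glycerol phosphate dehydrogenase, fell by 1.33 (adjusted p = 0.0072). Pck1, a step of glyceroneogenesis, was higher, at 60.1, 61.4 and 26.2 FPKM against 16.9, 11.2 and 6.67 FPKM (1.88 ± 0.50, adjusted p = 0.0328, lost without control 1, control 2, control 3, scivMSC 1 or scivMSC 2, up to 0.1). Adipoq, adiponectin, was at 69.5, 54.8 and 32.6 FPKM and 66.5, 74.6 and 49.5 FPKM (0.08 ± 0.36, adjusted p = 0.914). In the sebaceous gland list 1 of 20 genes was called, Ldhb, a lactate dehydrogenase subunit (fell by 1.23, adjusted p = 0.0177, lost without control 1, scivMSC 1 or scivMSC 2, up to 0.0663), and the median was 0.01, against -1.95 for DNCB relative to control. Scd1, a stearoyl-CoA desaturase, was at 429.7, 543 and 467 FPKM in control, 431, 237 and 488 FPKM in scivMSC and 77.5, 67.4 and 70.6 FPKM in DNCB skin (-0.48 ± 0.29 from control, adjusted p = 0.312). Scd3, its sebocyte paralog, was below control in every treated library, at 17.6, 11.4 and 30.6 FPKM against 45.5, 34.0 and 66.3 FPKM, but did not pass the test (-1.43 ± 0.57, adjusted p = 0.128).

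The clock genes Dbp and Nr1d1 had the smallest adjusted p of all genes tested. Of 18 tested, 5 were called lower and 1 higher (median log2 fold change -0.55). Dbp, a clock output factor, was at 40.9, 39.6 and 48.6 FPKM in control, 4.07, 4.14 and 5.40 FPKM in scivMSC and 8.41, 10.3 and 7.98 FPKM in DNCB skin. The 3 groups did not overlap, and treated skin was the lowest. The log2 fold change was -3.41 ± 0.22 from control (adjusted p = 0.000195) and -0.95 ± 0.20 from DNCB (adjusted p = 0.0188). Nr1d1, the repressor REV-ERBα, had the same order, at 53.2, 41.5 and 44.5 FPKM, 8.77, 10.5 and 9.48 FPKM and 18.8, 17.7 and 19.9 FPKM (-2.45 ± 0.18, adjusted p = 0.000361). Hlf, a factor related to Dbp, fell by 1.18 (adjusted p = 0.0102). Bhlhe41, a repressor of the clock, fell by 1.36 (adjusted p = 0.00968). Per3, a period gene, fell by 1.01 (adjusted p = 0.0182, lost without scivMSC 1 or scivMSC 2, up to 0.0714, with library size as the only scaling, and in each limma fit). Nfil3, which competes with Dbp and Hlf for the same sites, rose from 7.04, 6.54 and 5.18 FPKM to 25.4, 22.6 and 18.1 FPKM (1.63 ± 0.20, adjusted p = 0.00388). Per2 was at 4.74, 4.54 and 6.19 FPKM in control and 8.45, 9.42 and 7.24 FPKM in scivMSC skin (0.52 ± 0.18, adjusted p = 0.0764). Sphk2 lies opposite Dbp and can share its reads. The letters CACGTG, the E-box, were in 5 of 15 promoters of this list (33.3%), against 7.2% of all, and in 1 of the 6 of called members. The hour at which each mouse was killed was not given in the sources used here, and its part was not tested.

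**Figure D5:**
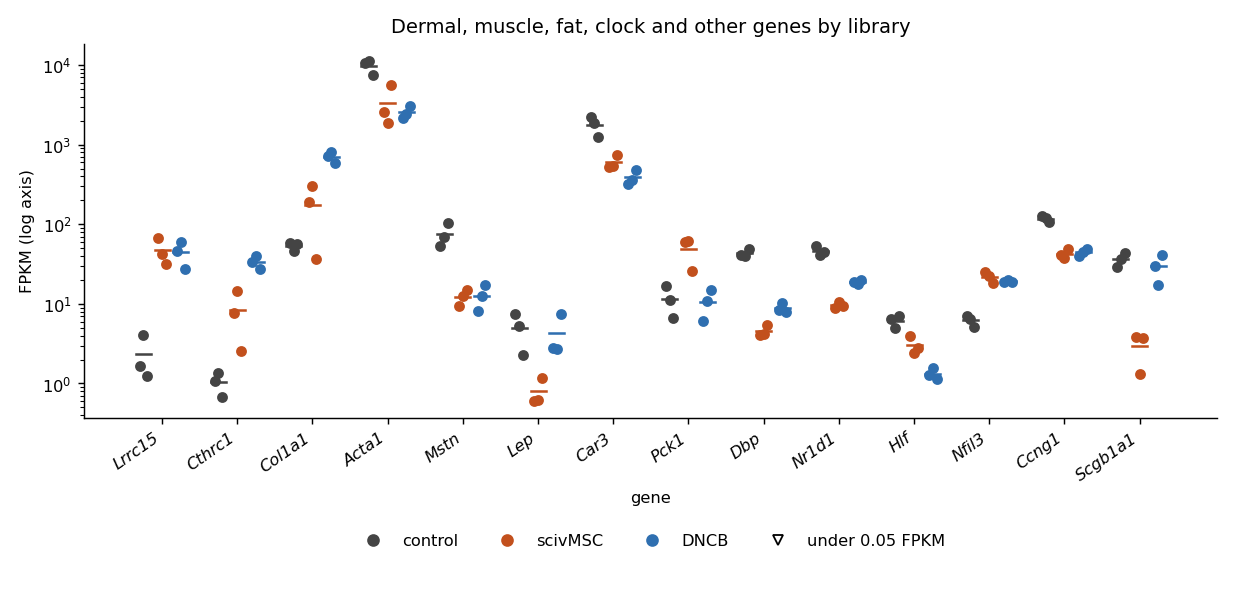
FPKM on a log axis of 14 dermal, muscle, fat, clock and other genes in the 3 control, 3 scivMSC and 3 DNCB libraries, with a bar at the group mean. Dbp is at 39.6 to 48.6 FPKM in control and 4.07 to 5.40 FPKM in scivMSC skin with narrow spread, whereas Col1a1 in scivMSC skin spans 36.4 to 299.8 FPKM.

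Of 36 genes of defence against electrophiles and haptens, 2 were called higher and 2 lower (median log2 fold change -0.15). That is 5.6% each way, beside 3.5% called higher and 3.35% lower among all genes. For the 16 genes of senescence and DNA damage below it was 6.2% each way. Gsto1, a glutathione transferase, was at 11, 14.7 and 15.0 FPKM in control and 29.1, 75.3 and 24.3 FPKM in scivMSC skin (1.47 ± 0.34, adjusted p = 0.0199, lost without control 1, control 2, control 3 or scivMSC 2, up to 0.0902, log2 0.82 (without scivMSC 2) to 1.70 (without scivMSC 3)). Gpx2, a glutathione peroxidase, rose by 1.25 (adjusted p = 0.0401, lost without control 1, control 2, control 3, scivMSC 1 or scivMSC 2, up to 0.132). Gstm1, which conjugates DNCB in the standard assay of its enzyme class, was at 71.9, 76.8 and 76.3 FPKM in control, 37.5, 40.9 and 38.1 FPKM in scivMSC and 30.5, 39.4 and 33.5 FPKM in DNCB skin (-1.13 ± 0.23, adjusted p = 0.012). Treated and DNCB libraries overlapped, below every control. Nqo1, a quinone reductase, fell by 1.08 (adjusted p = 0.0137, lost by the fold limit without control 1, at -0.87 or scivMSC 1, at -0.91). With library size as the only scaling neither Gstm1 nor Nqo1 was called, as both changes were then under 1 in size. Neither was called in any limma fit on FPKM, and Nqo1 was not called with the 6 libraries fitted alone. Of 16 genes of senescence and DNA damage, Lmnb1 was called higher and Ccng1, cyclin G1, a p53 target, lower, at 126, 119.7 and 107 FPKM in control, 41.1, 37.9 and 48.5 FPKM in scivMSC and 39.5, 44.7 and 48.5 FPKM in DNCB skin (-1.64 ± 0.21, adjusted p = 0.00388). Cdkn1a and Cdkn2a, the inhibitors p21 and p16, were above control in all treated libraries, at 83.1, 69.2 and 62.1 FPKM against 31.0, 43.6 and 45.1 FPKM and 2.24, 2.00 and 0.843 FPKM against 0.131, 0.463 and 0.735 FPKM, but did not pass the test (0.67 ± 0.21 and 1.73 ± 0.67, adjusted p = 0.0622 and 0.117).

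Of 21 Langerhans cell and MHC class II genes only Mgl2 was called (median log2 fold change -0.75), of 19 B and plasma cell genes Ighm and Derl3 were (median 0.19), and of 50 chemokine and receptor genes Ccl19 and Ccr4 (median -0.26). Of 23 complement genes (median -0.06), Cd59a, an inhibitor of the membrane attack complex, fell by 1.10 (adjusted p = 0.0201, lost without control 1, scivMSC 1 or scivMSC 2, up to 0.0723). It was not called with library size as the only scaling, in any limma fit or with the 6 libraries fitted alone. None of 20 eosinophil and type 2 effector genes and none of 22 immediate early genes was called (medians -0.40 and 0.18). The counts of this paragraph stand beside 6.85% called in either direction among all genes. Of 8 red blood cell genes, Slc4a1, the band 3 anion exchanger, rose by 4.27 at levels near or under 1 FPKM (adjusted p = 0.0295, lost without control 1, scivMSC 1 or scivMSC 2, up to 0.0986, log2 3.65 (without control 3) to 5.11 (without control 2); median 0.63). The median of the gamma delta T cell list was -0.88, or -0.70 with floor genes at their bound. Of the 58 genes that the study names in dorsal skin, a list chosen on these samples, 1 was called, Cldn23, with a median of 0.19, against 1.89 for DNCB relative to control.

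By the GO terms in the deposited file, 3 of 291 inflammatory response genes were called higher and 8 lower (median log2 fold change -0.02). The counts were 2 of 208 immune response genes higher and 7 lower (-0.22), and 8 of 361 innate immune response genes higher and 9 lower (-0.07). These shares are below the 6.85% of all genes. Of 41 hair follicle development genes 4 were called higher (0.53), of 55 keratinization genes 12 higher and 2 lower (0.49), and of 207 extracellular matrix genes 10 higher and 7 lower (0.21).

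Another 4 genes complete the 12 lower genes that met the rule, beside Krt77, Dbp, Fcrls, Ifitm6, Mamstr, Lep, Myhas and Mstn. Mrgprb11-ps, a pseudogene of the Mas-related receptor family, was at 11, 10.8 and 13.3 FPKM in control, 0.306, 0.222 and 0 FPKM in scivMSC and 0, 0 and 0.173 FPKM in DNCB skin (-6.19 ± 1.51, adjusted p = 0.0225, lost without control 1, scivMSC 1 or scivMSC 2, up to 0.0747, log2 -6.79 (without scivMSC 1) to -5.66 (without scivMSC 3)). It was at or near 0 in the scivMSC and the DNCB libraries. Fam78a was at 3.31, 3.58 and 2.18 FPKM and 0.476, 0.472 and 0.258 FPKM (-3.10 ± 0.35, adjusted p = 0.00388, at most 0.0164), and it overlaps Nup214 on the opposite strand. The lung genes Sftpc, surfactant protein C, and Scgb1a1, a secretoglobin of airway club cells, were at 5.37, 5.55 and 5.76 and 29.1, 36.5 and 43.0 FPKM in control and at 0.177, 0.265 and 0.242 and 3.79, 1.31 and 3.73 FPKM in scivMSC skin (Sftpc -4.71 ± 1.35, adjusted p = 0.0428, lost without any one of the 6 libraries, up to 0.13; Scgb1a1 -3.77 ± 1.05, adjusted p = 0.0383, lost without any one of the 6 libraries, up to 0.129). DNCB libraries, at 5.57, 3.58 and 7.28 and 29.8, 17.4 and 41.4 FPKM, overlapped control. Both calls held with the 6 compared libraries fitted alone, and both were also lost without any one DNCB library. The spread in the main model also came from the DNCB and scMSC libraries, and the part of the split among scMSC libraries was not tested.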

How the data were processed

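RNA of dorsal skin was sequenced in 12 libraries, 3 a group. The authors deposited, for each of 36400 genes and each library, whole-number estimated counts and FPKM. The submitters' processing notes name HISAT2 2.0, StringTie 1.3.0 and Bowtie 0.12.2, without saying what each did, and the genome build mm8; 36285 of the 36287 identifiers found in GENCODE M21 overlapped their GRCm38 position, so promoter coordinates are of GRCm38.p6. The strand of counting was not stated in the sources used here. Low counts came largely in multiples of 4, so that 1 fragment was taken as 4 estimated counts.

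The estimated counts were fitted with edgeR 4.0.16 (TMM scaling, quasi-likelihood F-test, 4 groups in 1 model without covariates, so that DNCB and scMSC libraries also inform the spread; common biological coefficient of variation 0.42), with Benjamini-Hochberg adjustment over the 21890 genes tested. Genes were called where the adjusted p was below 0.05 and the log2 fold change beyond 1 in size. The SE was the absolute log2 fold change divided by the square root of the F statistic. It therefore rests on the spread within all 4 groups and not on the compared libraries alone. FPKM values are shown by library and were not tested in the main comparison. Per direction, the text names the 12 called genes with the largest absolute log2 fold change among those with a mean of at least 1 FPKM and groups that did not overlap, passing over 7 symbols of predicted genes or variable segments in each direction, plus members of the lists. The members and lists were chosen with earlier results of these data known. Lists carry no test of their own. Replicate numbers did not pair the libraries (correlations of same-numbered deviations -0.0257, -0.118 and -0.185). Alternatives were DESeq2 1.42.0, limma 3.58.1 on log2(FPKM + 0.01, 0.1 or 1), other scalings, filters and thresholds, and each library left out. The steps were tested on simulated data. Counting error is the only error that floors cover, and near-identical keratin, keratin-associated, Sprr2 and Irgm genes can share reads. The values of 1 list member are not reported here.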

Additional observations from a re-analysis of the deposited data

How the results depend on the processing

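The count of called genes was 1500 (766 higher, 734 lower). It stayed within 1.5 times that under relative log expression size factors (714 higher, 803 lower), DESeq2 (998 and 1093), counts divided by 4, a minimum of 1 FPKM or no filter, and library size alone (1134 and 566). It was 795 (406 and 389) with the 6 libraries fitted alone, 2899 (1557 and 1342) with no fold limit, and 4699 (2344 and 2355) with an unadjusted p under 0.5, the threshold printed by the study. limma gave 1235 higher with a pseudocount of 0.01, 1174 higher with 0.1 and 427 lower with 1. Leaving out each compared library gave 843 to 1798 calls, 407 to 761 higher and 348 to 1037 lower. The replicate block gave 655 higher and 689 lower, 1344 in all, but the numbers did not pair the libraries.

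Of the 117 named genes that passed, none changed direction in 2684 alternative fits, and 370 of these fits ended a call; the cause was not tested. For the 23 named genes that did not pass, 12 of 529 pairs of a gene and a fit passed and 6 changed sign, all with a library left out. Over the 6 such fits Krt10 ran from -0.069 (without control 1) to 0.52, Il1b from -0.011 (without control 2) to 1.02, Nlrp3 from -0.30 (without control 2, and -0.26 without scivMSC 2) to 0.79, and Adipoq from -0.23 (without control 3, and -0.02 without scivMSC 2) to 0.32.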
